A study of Mus musculus with 12 samples.

Results

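Single-cell transcriptomes of mouse tumours grown from lines named SCC35 hold a minority of non-immune cells that carry much Akr1c18 messenger RNA. Cells were selected on their raw counts. A cell was a member when it had at least 3 unique molecular identifiers (UMIs, each one captured transcript) of Akr1c18, with limits on 11 other genes. These limits were no UMI of Wfdc2, Ptprc, Cd3e or Pecam1, and at most 1 UMI of Tyrobp, of Mki67 and Top2a together, and of Iigp1, Gbp2, Igtp and Ifit3 together. They keep out most epithelial-like, immune, endothelial, cycling and interferon-responding cells. The members numbered 1070 of 116375 cells that passed the cell filter and carried a clear hashtag, or 0.919%. Of the 41958 cells inside the same limits at any Akr1c18 count, called gated cells below, the members made up 2.55%. Another 39150 gated cells had no Akr1c18 UMI and served as the comparison (Akr1c18-zero cells), and 1738 had 1 or 2.

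The samples were 6 gene expression libraries of live-sorted, hashtagged cells, made with the 10x 5′ kit. The series tested loss of Mif, which encodes the secreted cytokine macrophage migration inhibitory factor. Lines 15 and 18 are labelled as controls of the Mif knockout and lines 19 and 24 as Mif knockouts (KO). Each line had a library of its own, mixed library 1 held lines 15, 18 and 19, and mixed library 2 held lines 18 and 24 and 3 tumours that the deposited sheet calls WT, which the labels put in no group. The sheet gives day 0, 6, 10 or 16 for each hashtag, without saying from what event the days run, and the labels do not say whether a line is 1 clone, nor give the host mice. Each hashtag of a library is called a tumour here, at day 0 too.

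Akr1c18 encodes an aldo-keto reductase that converts progesterone into its less active 20-alpha-hydroxy form and is best known from the ovary, where it ends progesterone action. Aldo-keto reductases reduce aldehydes and ketones, among them steroids, prostaglandins and products of lipid peroxidation. Of the other marker genes, Qdpr encodes dihydropteridine reductase, which regenerates the cofactor tetrahydrobiopterin. Dkk2 encodes a secreted modulator of Wnt signalling through LRP co-receptors, and Pthlh encodes parathyroid hormone-related protein, a secreted factor of cartilage and bone that many tumours make.

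The 4 markers lie on 4 chromosomes: Akr1c18 on chromosome 13 (4132615 to 4150654), Qdpr on chromosome 5 (45434021 to 45450236), Dkk2 on chromosome 3 (132085292 to 132180304) and Pthlh on chromosome 6 (147252101 to 147264183), all in GENCODE M21 on GRCm38. Their promoters, from 250 bases before to 50 after the start in RefSeq on GRCm38.p6, are printed because these genes stood high in the same cells. Capitals mark matches on either strand to any motif searched. The letters were TATAAA for the TATA box, which places the start of transcription, and CCAAT for the element that NF-Y recognises. They were GGGCGG for the GC box of Sp1 factors, TGANTCA for AP-1 and TGACGTCA for the cAMP response element. The letters of the antioxidant response element were TGACNNNGC, those of an E-box of the MITF kind were CACGTG, and those of the TEAD element were GGAATG.
Akr1c18, chr13:4150597-4150896, minus strand: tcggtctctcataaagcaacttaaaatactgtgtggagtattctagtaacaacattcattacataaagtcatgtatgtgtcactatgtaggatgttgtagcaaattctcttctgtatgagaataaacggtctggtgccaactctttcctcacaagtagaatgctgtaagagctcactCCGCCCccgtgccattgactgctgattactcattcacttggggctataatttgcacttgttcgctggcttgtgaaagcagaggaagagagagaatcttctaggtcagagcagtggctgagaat
Qdpr, chr5:45450180-45450479, minus strand: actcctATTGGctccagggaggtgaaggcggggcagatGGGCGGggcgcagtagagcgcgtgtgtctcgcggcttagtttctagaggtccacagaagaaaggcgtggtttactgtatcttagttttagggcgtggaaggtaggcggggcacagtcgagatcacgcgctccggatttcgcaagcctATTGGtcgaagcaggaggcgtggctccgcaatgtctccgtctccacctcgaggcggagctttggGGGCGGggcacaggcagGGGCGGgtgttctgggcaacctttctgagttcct
Dkk2, chr3:132085042-132085341, plus strand: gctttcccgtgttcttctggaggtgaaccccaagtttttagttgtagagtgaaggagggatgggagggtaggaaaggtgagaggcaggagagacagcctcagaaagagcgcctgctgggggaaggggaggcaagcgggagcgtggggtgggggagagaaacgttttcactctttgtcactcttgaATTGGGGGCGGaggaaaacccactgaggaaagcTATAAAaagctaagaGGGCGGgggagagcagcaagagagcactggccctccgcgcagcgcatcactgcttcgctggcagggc
Pthlh, chr6:147263964-147264263, minus strand: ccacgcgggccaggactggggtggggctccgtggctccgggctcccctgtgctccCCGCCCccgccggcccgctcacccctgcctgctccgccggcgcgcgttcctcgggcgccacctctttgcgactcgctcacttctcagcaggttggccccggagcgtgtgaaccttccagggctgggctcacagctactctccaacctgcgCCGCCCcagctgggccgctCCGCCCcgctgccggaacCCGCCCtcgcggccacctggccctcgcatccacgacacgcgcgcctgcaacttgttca
A GC box stood in all 4 windows, as it did in 35.9% of the 27025 promoters of the table. None of the 4 held the AP-1, cAMP response, antioxidant response, E-box or TEAD letters, which stood in 7.93%, 1.88%, 12.5%, 7.24% and 14.6% of all promoters. A TATA box stood in Dkk2 alone (14.2% of promoters), and the NF-Y letters in Qdpr and Dkk2 (37.9%). In Dkk2 the NF-Y match, on the minus strand, adjoins a GC box.

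Libraries held 151385933 to 239699029 UMIs, and the median kept cell of a library had 3484 to 8716. Library pairs shared 296 to 709 cell barcodes, and 6 members carried a barcode that was also a member in another library. Members came from 37 of 45 tumours. They were deeper than Akr1c18-zero cells, with a median of 9991 against 4583 UMIs and 3001 against 1869 genes, which the requirement of 3 UMIs favours. These medians pool libraries of unlike depth. The deeper library of line 15 gave 364 members, and that of line 24, the shallowest, gave 0 members and 7563 zero cells. Mitochondrial shares were 1.83% and 2.19%.

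The hashtag labels of some members went against the cells' Mif. In their own library, the 41 members of KO line 19 had 50.3 CPM of Mif (UMIs per 1000000 UMIs of the pooled cells) and the Akr1c18-zero cells 84.7. In mixed library 1, the 86 members labelled line 19 had 1310 CPM against 288 CPM in the zero cells of the same tumours. Of those 86, 49 had over 1000 CPM and 22 under 500, whereas none of the 41 in their own library exceeded 1000. In mixed library 2, the 20 members labelled line 24 had 2129 CPM against 972 CPM in zero cells, while control members had 1947 to 2567 CPM. Group comparisons that use members labelled KO in a mixed library are therefore also given without them where KO members remained. The levels by Akr1c18 count and the shares of single members with a UMI pool all members. How Mif-carrying cells came under these hashtags was not tested.

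**Figure D1:**
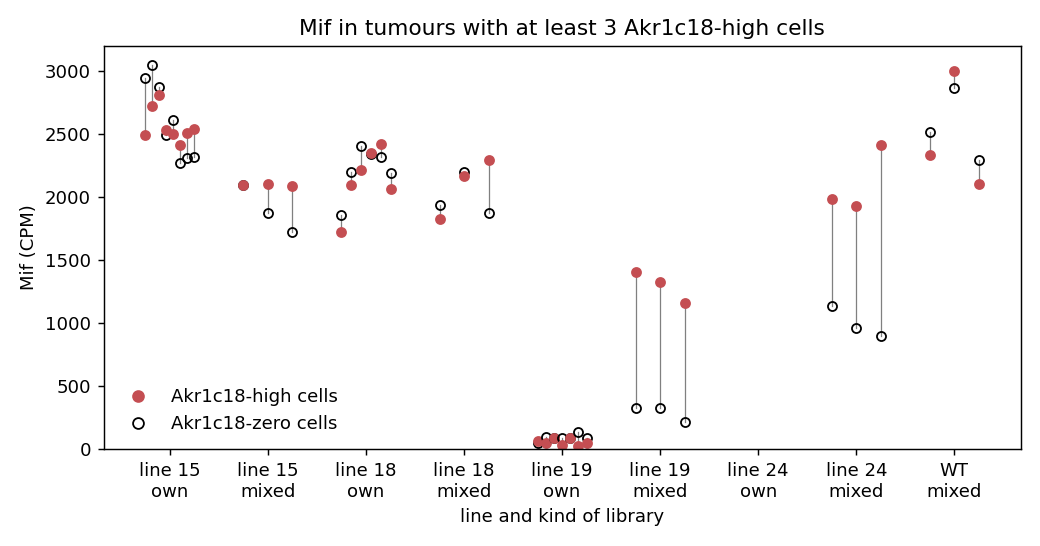
Mif in Akr1c18-high cells (filled) and Akr1c18-zero cells (open) of each tumour with at least 3 high cells, in CPM on a linear axis, by line and kind of library; a grey line joins the classes of a tumour. High cells labelled line 19 or 24 in the mixed libraries stand far above the zero cells of their own tumours, and in the own library of line 19 both classes lie near 0.

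Akr1c18 UMIs in immune cells were taken as a background level. How these cells came to carry them was not tested. Among cells with a Ptprc UMI and at least 2 of Tyrobp, 3.90% had an Akr1c18 UMI at a median depth of 3482 UMIs, against 6.69% of gated cells at 4795 UMIs. At 3 UMIs or more the shares were 1.39% and 2.55%. After thinning each cell to 3000 UMIs, 12.3% of gated cells against 4.76% of these immune cells had an Akr1c18 UMI in the library of line 15, and 1.66% against 0.773% in that of line 19. For these shares the limits were applied before thinning. In the library of line 18 the thinned shares were close, at 7.34% and 6.80%, and the unthinned shares at 3 UMIs or more were 2.60% and 2.13% with overlapping 95% exact intervals (2.29% to 2.95% and 1.50% to 2.92%). Shares in line 18 thus cannot be set above the level in immune cells. In the library of line 24, 0.0661% of gated cells and 0.0765% of immune cells had an Akr1c18 UMI. Their 95% exact intervals overlapped (0.0215% to 0.154% and 0.00926% to 0.276%). In mixed library 2 the shares at 3 UMIs or more were 1.89% (1.58% to 2.24%) of gated and 1.31% (0.943% to 1.78%) of immune cells, also overlapping. In mixed library 1 they were 3.46% and 1.65%, without overlap. The intervals cover counting error only.

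In cells pooled over all lines, the threshold cut a continuous gradient. Among gated cells Qdpr stood at 184 CPM with no Akr1c18 UMI, at 477 CPM with 1, at 704 CPM with 2, just outside the threshold, at 801 CPM with 3, just inside it, and at 1586 CPM with 10 or more. Pthlh ran from 47.6 CPM at 0 UMIs through 129 CPM at 2 and 139 CPM at 3 to 257 CPM at 10 or more. Dkk2 rose from 38.6 CPM at 0 UMIs to 130 CPM at 3 and then stayed between 110 and 143 CPM. The groups of cells with 2 and 3 UMIs held 446 and 276 cells. These levels describe how the cells were chosen and carry no test. The lines do not make up the same part of each bin: the own library of line 24 gave 7563 of the 39150 zero cells and 0 members. The part of the line mix in these steps was not tested.

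**Figure D2:**
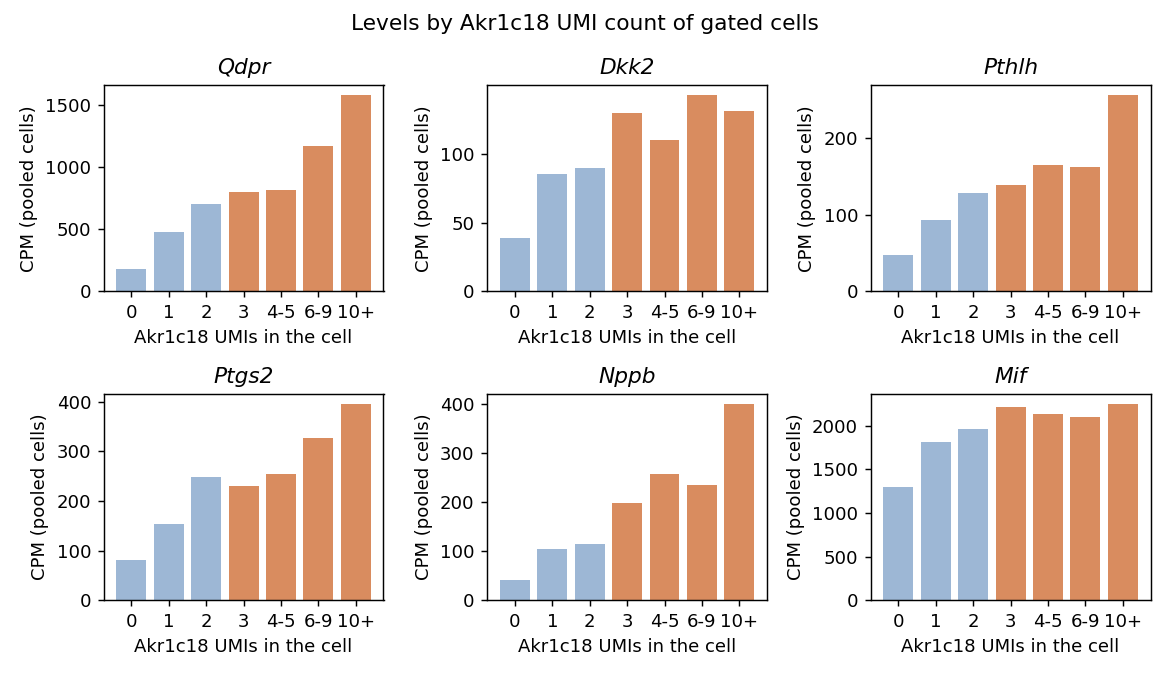
Pooled levels (CPM) of 6 genes in gated cells by the cell's Akr1c18 UMI count; orange bars are members, blue bars cells below the threshold. Qdpr, Pthlh, Ptgs2 and Nppb are highest at 10 or more UMIs, while Dkk2 and Mif differ little between the 4 member bins. Bins pool all lines, which do not make up the same part of each bin.

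In single members, 96.5% had a Qdpr UMI, 60.3% a Pthlh UMI and 43.6% a Dkk2 UMI. All 3 were found in 29.2% of members, and 1.87% had none. Among Akr1c18-zero cells matched to the members on UMI total in each tumour (median 9486 UMIs), the shares were 72.3%, 30.6%, 21.8%, 7.86% and 19.2% in the same order. Pooled members thus carried all 4 markers. Most single members did not show all 4 genes at this depth.

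Many Akr1c18-rich cells lay outside the limits. Of 2696 passing cells with at least 3 Akr1c18 UMIs, 39.7% were members. The Mki67 and Top2a limit alone or with others removed 43.2%, the interferon limit 17.1%, Tyrobp 14.1%, Ptprc 10.8% and Wfdc2 3.67%.

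The share of members among gated cells followed the line. In the own libraries, tumours of control line 15 ran from 6.12% to 13.2%, with a median of 8.96% (n = 8). Control line 18 ran from 1.27% to 3.99% with a median of 3.47% (n = 7), KO line 19 from 0% to 1.34% with a median of 0.545% (n = 8), and KO line 24 had none among 7568 gated cells, which allows a share of up to 0.0396% by the limit of 3 counts and 0.0487% by the exact 95% interval. These ranges did not overlap between lines 15, 18 and 24. Line 19 overlapped line 18 by its highest tumour, and its lowest tumour had none, as in line 24. Gated cells were deeper in the own library of line 15 (median 8341 UMIs) than in that of line 18 (3997 UMIs), which favours members in line 15. With cells thinned to 3000 UMIs, the tumours of lines 15 and 18 overlapped (1.52% to 5.75% and 0.826% to 2.54%). Line 19 then ran from 0% to 0.247% and line 24 had none. The limits were applied again to the thinned counts, so cells outside them at full depth could enter. In 1 day 0 tumour of line 15 the thinned share was of 473 cells, against 165 gated cells at full depth. In 1 day 10 tumour of line 18 it was of 1036 against 1057. Thinned shares are thus not of the same cells. In the mixed libraries line 15 had 4.38%, 11.2% and 6.32% on days 6, 10 and 16, line 18 had 6.65%, 2.40% and 1.83%, line 19 had 2.86%, 1.70% and 1.62%, line 24 had 1.21%, 0.804% and 0.743%, and the WT tumours had 2.66%, 1.77% and 0.750%. All 3 shares of line 24 and the lowest of WT are at or below the 1.31% of immune cells in their library. They cannot be set above that level. Members labelled line 24 there carried Mif as described, and the source of their Akr1c18 UMIs was not tested. In mixed library 1 the shares of line 19 on days 10 and 16 are close to the 1.65% of immune cells. Line and library cannot be told apart in the own libraries.

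**Figure D3:**
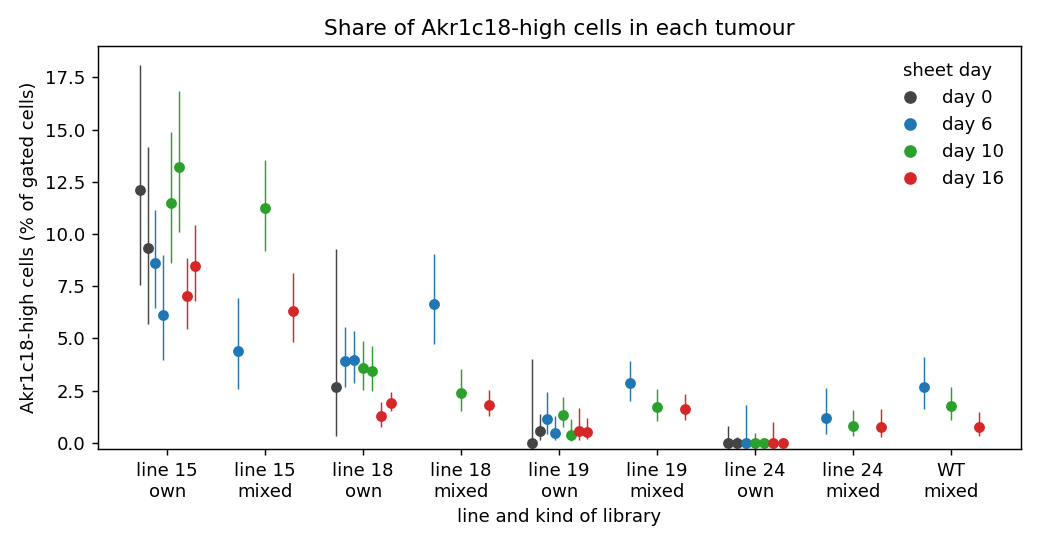
Akr1c18-high cells as a percentage of gated cells in each of 45 tumours, by line and kind of library and coloured by day; bars are exact 95% binomial intervals of counting error. Every tumour of line 15 in its own library lies above every tumour of lines 18, 19 and 24 in theirs. Cells are not thinned here. With cells thinned to 3000 UMIs and the limits applied to the thinned counts, the own-library tumours of lines 15 and 18 overlapped.

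KO lines held a mean share of 0.646% and control lines 6.05%, a difference of -5.41 percentage points. Permuting the group among the 4 line means, an exact two-sided test, gave p = 0.333. No smaller p is possible with 4 lines, so the design cannot reach 0.05. The difference was -5.95 points in the single-line libraries alone, where no KO-labelled cell of a mixed library enters, and -3.98 points in the mixed libraries. It was -2.53 points without line 15 and -8.29 without line 18, -1.99 with cells thinned to 3000 UMIs and -2.74 at 6 Akr1c18 UMIs or more. As Akr1c18 CPM over all gated cells, which no threshold shapes, KO lines had 9.43 and control lines 73.2 CPM, and 3.66 and 73.1 CPM in the single-line libraries alone.

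Later days and day 0 did not differ in the share of members beyond the spread between tumours. In line 15 the mean share was 10.7% on day 0 and 9.16% later, in line 18 2.67% and 3.03%, in line 19 0.274% and 0.744%. The difference averaged over the 4 lines, later minus day 0, was -0.183 points (exact permutation of day within line, two-sided p = 0.776, 30 tumours). Its sign turned with thinning to 3000 UMIs (0.463 points), as Akr1c18 CPM (6.47 CPM), without host-marked cells (0.212 points) and without line 15 (0.276 points). It was -0.674 points at 6 Akr1c18 UMIs or more and -0.361 with the stricter cell filter, neither of which passed. Line 18 had a single day 0 tumour, with 2 members among 75 gated cells. Differences among the later days were not tested. In line 18 the shares were 3.91%, 3.99% and 6.65% on day 6 and 1.27%, 1.93% and 1.83% on day 16, own and mixed libraries together, without overlap. The gated cells of these tumours were deeper on day 6 (medians of 5574 to 8718 UMIs) than on day 16 (3386 to 4169). With cells thinned to 3000 UMIs the shares overlapped, at 0.826%, 2.54% and 1.70% on day 6 and 1.03%, 1.02% and 1.01% on day 16. Thinned shares are of cells inside the limits on thinned counts, here and in the difference between days above. Days 6 and 16 overlapped in line 15 (4.38% to 8.61% and 6.32% to 8.49%) and in line 19 (0.498% to 2.86% and 0.541% to 1.62%).

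Beyond the markers, members differed from Akr1c18-zero cells of the same tumours in a broad programme. Natriuretic peptide B, a sugar-phosphate transporter, a calcium pump, a pyrophosphate transporter and the prostaglandin enzyme Ptgs2 stood higher, by 2.95-fold (Ptgs2) to 5.73-fold (Nppb) as ratios of the means over tumours. Of TGF-beta response genes 11 of 13 were lower, of interferon response genes 11 of 14 and of immediate early genes 14 of 17. Macrophage markers were lower in 8 of 8, and none of those tested passed with cells thinned to 3000 UMIs (0 of 6) or without host-marked cells (0 of 5). Host-marked cells were chosen on lists that include these markers, so the loss without them is partly built in. The comparison used 925 members and 20123 zero cells summed per tumour and class in 21 tumours with at least 20 cells of each class: 9 of line 15, 8 of line 18, 3 of line 19 and 1 WT. Of 8770 genes tested, leaving out the markers and the genes of the limits, 3146 (35.9%) had an edgeR adjusted p under 0.05. Members were higher for 1550 of them (17.7%) and lower for 1596 (18.2%). The cells were split by counts of a gene in the same cells, so genes that vary with Akr1c18 for whatever reason will differ, and p-values cover the spread between these tumours. The number of genes past the threshold fell to 1708 without line 15, to 1213 with cells thinned to 3000 UMIs and to 536 against cells with 1 or 2 Akr1c18 UMIs (311 higher, or 5.53% of 5627 tested, and 225 lower, or 4%). It was 3004 without the 3 tumours labelled line 19 in mixed library 1. In the thinned comparison a member needed 2 Akr1c18 UMIs after thinning and a zero cell had 0. The limits were applied to the thinned counts, so cells outside them at full depth could enter either class. The thinned comparison thus does not hold the same cells as the main one.

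Nppb, which encodes B-type natriuretic peptide, a hormone best known from the heart, had the largest rise of the named genes. It ran from 94.3 to 505 CPM in members with a median of 204, and from 12.2 to 78.8 CPM in zero cells with a median of 31.2. All 21 tumours were higher in members and the ranges did not overlap. On the log2 scale edgeR put the difference at 2.58 (SE 0.13, adjusted p = 3.59e-18).

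Ank, whose protein carries pyrophosphate and citrate out of cells and restrains mineral deposition, ran from 629 to 1264 CPM in members (median 1115) and from 60.6 to 468 CPM in zero cells (median 286). Again no member value overlapped a zero value. edgeR gave 1.93 on the log2 scale (SE 0.10, adjusted p = 1.53e-17).

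Ptgs2, cyclooxygenase 2, makes the precursor of prostaglandins from arachidonic acid. It ran from 146 to 498 CPM in members (median 286) and from 59.5 to 173 CPM in zero cells (median 92.6), higher in members of all 21 tumours although the ranges overlapped. edgeR gave 1.61 on the log2 scale (SE 0.09, adjusted p = 2.80e-17).

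Slc37a2, a sugar-phosphate exchanger of the endoplasmic reticulum, ran from 47.3 to 201 CPM in members and from 9.23 to 67.6 CPM in zero cells, and its log2 fold change was 2.14. Atp2a3, a calcium pump of the same organelle, ran from 38.9 to 263 CPM against 5.25 to 77.3 CPM, with a log2 fold change of 1.98. The other rises of the named genes were Itga6, a laminin-binding integrin chain (1.83), Anxa8, an annexin (1.82), Qpct, glutaminyl cyclase (1.80), Rgs16, a brake on G-protein signalling (1.67), Shroom3, an actin-binding shape regulator (1.63), Tspan12, a tetraspanin that promotes Norrin signalling (1.58), and Insl6, an insulin-like peptide (1.50). Anxa8 was higher in members of 19 of 21 tumours, Tspan12 of 20, and the other 10 of all 21. All 12 kept an edgeR adjusted p under 0.05 and their direction under every alternative run but one, the 2 day 0 tumours of line 15, where 11 of them did and Tspan12 had a log2 fold change of 2.08 and an adjusted p of 0.0786.

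**Figure D4:**
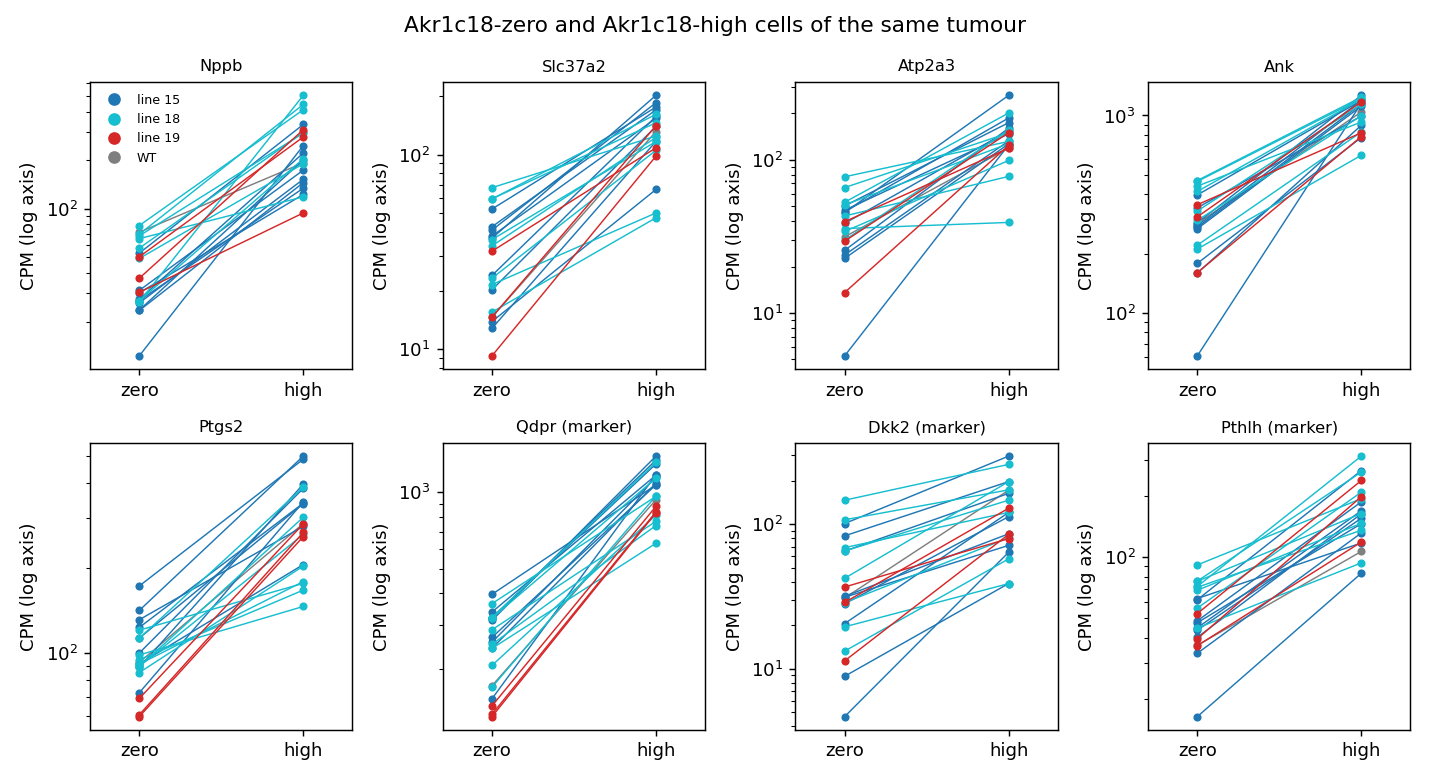
Levels of 8 genes in Akr1c18-zero and Akr1c18-high cells of the same tumour (CPM, log axes; one line per tumour, coloured by cell line, n = 21). All 21 tumours rise for every gene shown; Qdpr, Dkk2 and Pthlh are markers of these cells and carry no test.

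Of the aldo-keto reductases, 6 of 16 listed genes passed the filter on low counts, and 3 rose in members, none fell and 3 did not pass. Akr1b8, which reduces aldehydes and retinal, rose most: it ran from 197 to 359 CPM in members and from 55.4 to 151 CPM in zero cells, without overlap, and edgeR gave 1.34 on the log2 scale (SE 0.07, adjusted p = 2.65e-18). Akr1a1 rose by 0.15. The other listed Akr1c genes were below the filter, and reads of near-identical Akr1c genes could be split by the authors' counting, so the count of Akr1c18 itself is uncertain to that extent. With depth-matched zero cells alone 2 of the 6 rose, where 17.4% of all 6860 genes tested were higher and 18.8% lower. The median log2 fold change of the 6 was 0.20, against -0.02 over all genes tested.

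Of 10 genes of prostaglandin synthesis and reception tested, 3 rose, 2 fell and 5 did not pass. Over all genes tested, 17.7% rose and 18.2% fell. Besides Ptgs2, Ptgs1, the constitutive cyclooxygenase, rose by 1.31 (24.7 to 160 CPM in members against 20.8 to 59.8 in zero cells, higher in all 21 tumours), and Pla2g4a, the phospholipase that frees arachidonic acid, by 1.01 (19 of 21 tumours). The terminal synthases Ptges and Ptgds fell by 1.86 and 1.37 on the log2 scale. Without host-marked cells Ptgds fell by 1.45 and Ptges was below the filter on low counts, and against cells with 1 or 2 Akr1c18 UMIs Ptgds did not pass and Ptges was not tested. Steroid genes were divided, with 4 of 12 higher and 2 lower. They included Hsd3b7, an enzyme of bile acid synthesis, at 0.95, Hsd17b7 at 0.52, Pgrmc1, a haem-binding membrane protein, at 0.47 and Hsd17b12 at 0.40. Of 6 tested genes of tetrahydrobiopterin and folate metabolism, where Qdpr acts, Spr, which completes tetrahydrobiopterin synthesis, rose by 0.33, Pts and Gch1 fell by 0.48 and 0.58, and 3 did not pass. Without host-marked cells Gch1 had a log2 fold change of 0.08 and did not pass.

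NRF2 targets mostly stayed within the spread, with 6 of 24 higher and 3 lower and a median of 0.04. Over all genes tested, 17.7% were higher and 18.2% lower. The NRF2 counts are near these shares, so no conclusion is drawn from them. Srxn1 rose by 0.44 and Gclm by 0.22, Gstm1 fell by 0.78, and Nqo1 had a log2 fold change of 0.05 without passing. Genes of hypoxia and glycolysis were higher in 9 of 17 and lower in 2, with a median of 0.20. Bnip3, a mitophagy receptor, rose by 0.44 and Gapdh by 0.27, and Egln3 and Hk2 fell by 0.88 and 0.64.

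Among Wnt genes, 2 of 9 rose and 5 fell, where 17.7% of all genes tested rose and 18.2% fell. Notum, a secreted enzyme that inactivates Wnt proteins, rose by 1.13 (72.3 to 140 CPM in members, 11.1 to 92.2 in zero cells, higher in all 21 tumours), and Wnt10a, a ligand, by 0.84 (also all 21). Tcf7l2, Kremen1 and Fzd2 fell by 1.04, 1.07 and 1.52 and were not tested or did not pass with depth-matched zero cells and without host-marked cells, where 2 of 5 tested genes rose and none fell. Of all 6732 genes tested in that comparison, 18.4% were higher and 17.2% lower in members. Of 5 genes of the PTHrP and hedgehog axis, Tgfb2 rose by 0.40, Gli3 was among 3 that fell, at -0.33, and 1 did not pass.

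Mesenchymal genes were split between 6 higher, 5 lower and 5 not passing of 16. Over all genes tested, 17.7% were higher and 18.2% lower, and no list of this paragraph was tested against these shares. Vim ran from 13560 to 24856 CPM in members and from 9752 to 16290 CPM in zero cells and rose by 0.61 (edgeR adjusted p = 6.28e-15). Cd44, the hyaluronan receptor, rose by 0.75, Twist1 by 0.61 and Sox2 by 0.67, whereas Fn1 fell by 0.88. Of 10 bone and cartilage genes, 3 rose, among them Sox9 (0.40) and Spp1 (0.36), and 5 fell, among them Col1a1 (-2.83). Melanocyte genes passed the filter only as Gpnmb (0.46) and Mitf (0.28), and no member of the 21 tumours had a UMI of Tyr, Tyrp1, Dct or Mlana. Of 15 MAPK feedback genes, 5 rose, among them Etv4 (0.77), Areg (0.60), Hbegf (0.55) and Dusp4 (0.50). Spry1 fell by 0.86 and Ereg by 3.15.

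TGF-beta response genes were lower in 11 of 13, with a median log2 fold change of -0.88, where 18.2% of all genes tested were lower. Thbs1, a matrix glycoprotein, ran from 35.5 to 293 CPM in members and from 193 to 637 CPM in zero cells, lower in members of all 21 tumours, and fell by 1.78 (SE 0.09, edgeR adjusted p = 1.53e-17). Pmepa1, a feedback inhibitor, fell by 2.11 and Tagln by 3.25. Tgfbi, also induced by TGF-beta, was the 1 gene higher, by 0.67. With depth-matched zero cells and without host-marked cells, 5 of 10 fell and 2 rose with a median of -0.37 (17.2% and 18.4% of all genes there). There Thbs1 and Pmepa1 still fell, by 1.29 and 1.01.

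Interferon response genes were lower in 11 of 14 and none was higher, with a median of -0.49. Over all genes tested, 17.7% were higher and 18.2% lower, and no list of this paragraph was tested against these shares. MHC class I genes were lower in 5 of 9. Psmb8, an immunoproteasome subunit, fell by 1.17, Irf1 by 1.06, Tap2 by 1.16 and H2-K1 by 0.71, and B2m had a log2 fold change of 0.01. Cell cycle genes were lower in 8 of 17, such as Hmgb2 by 0.59, and Ccnd1, the G1 cyclin, was higher by 0.57. The limits on Mki67, Top2a and 4 interferon genes bind more tightly in deeper cells. With depth-matched zero cells and without host-marked cells 13 of 16 cell cycle genes and 7 of 12 interferon genes fell (17.2% of all genes there). Of 15 p53 targets, Eda2r rose by 0.44, 4 fell, such as Btg2 by 1.41, and 10 did not pass.

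**Figure D5:**
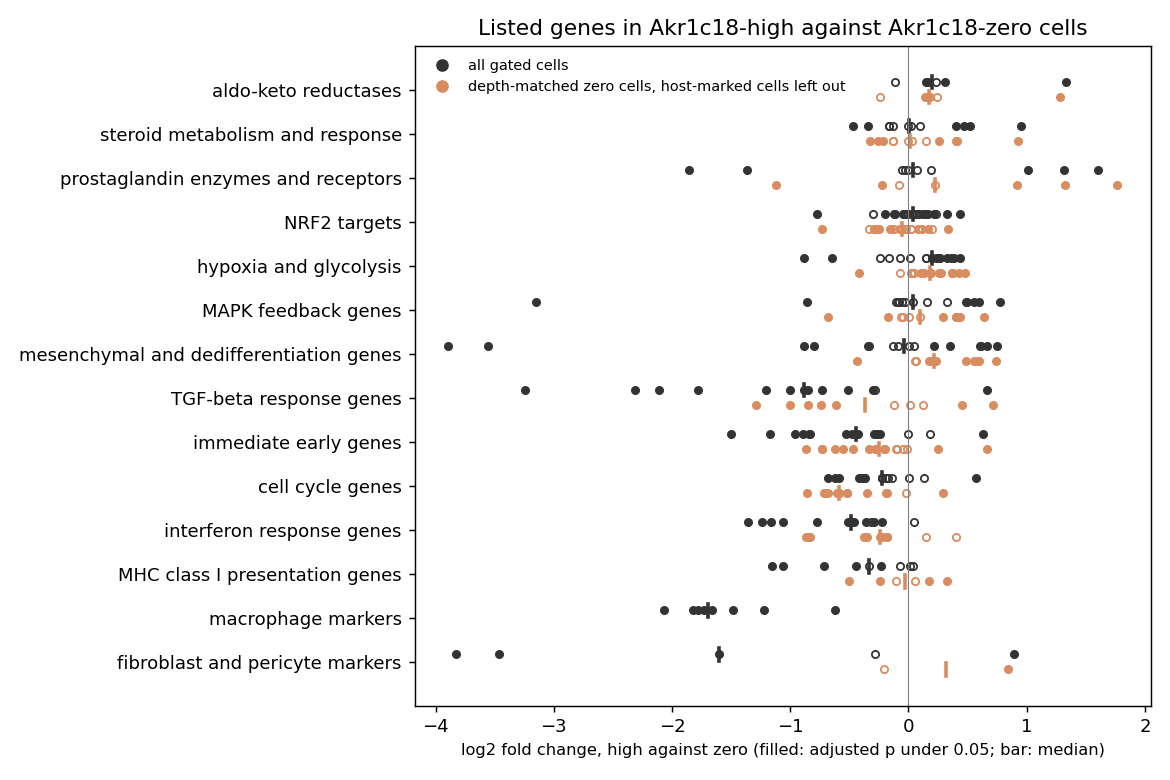
Log2 fold changes of listed genes, Akr1c18-high against Akr1c18-zero cells, over all gated cells (black) and with depth-matched zero cells after leaving out host-marked cells (orange); filled points have an edgeR adjusted p under 0.05 and bars are medians. Macrophage markers drop out of the orange comparison because none passed its filter on low counts, after removal of cells chosen partly on these markers. In black, 3 of 6 aldo-keto genes are higher and 0 lower, and 3 of 10 prostaglandin genes are higher and 2 lower. Each list also has 3 higher in orange. Over all genes tested, 17.7% are higher and 18.2% lower in black, and 18.4% and 17.2% in orange.

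The 12 named falls included matrix genes and genes of other kinds. Zero cells summed to 1715418 to 13457618 UMIs per tumour and members to 213434 to 1032862. A gene can pass the filter on low counts by the zero cells alone, so falls can rest on few member counts. Dcn, a collagen-binding proteoglycan, ran from 0 to 209 CPM in members (median 3.65) and from 0.583 to 811 CPM in zero cells (median 271), with a log2 fold change of -3.82. Cxcl14, a chemokine, had -7.02, Cck, a peptide hormone, -5.53, and Fbln2, Thy1, Fibin, Hspa1a, Bgn, Rarres2, H19, Slit3 and Tnc had -3.98 to -3.55. The limits do not name a fibroblast gene. All 10 fibroblast markers together ran from 45.0 to 610 CPM in members and from 15.2 to 1540 CPM in zero cells, lower in members of 20 of 21 tumours. The 12 macrophage markers together ran from 19.9 to 204 CPM against 26.8 to 423 CPM (19 of 21), with Lyz2 lower by 1.82 and Apoe by 2.06. With cells thinned to 3000 UMIs none of 6 macrophage markers passed, their median was 0.05 and Lyz2 had 0.19. There the limits on Ptprc and Tyrobp were applied to thinned counts, so the cells of both classes are not the same as in the main comparison. The 7 endothelial markers together ran from 119 to 357 CPM in members and from 166 to 450 CPM in zero cells. Their medians were 311 and 365 CPM, and members were lower in 15 of 21 tumours. Neutrophil markers were at most 4.10 CPM in members, with Retnlg and Cxcr2 at 0, T and NK markers at most 15.8 CPM, and 8 of 9 keratinocyte markers were at 0. The exception, Lgals7, rose by 1.01 in members. Cells with over 0.5% of UMIs from these host lists were 1.21% of members and 9.23% of zero cells. Without them 5 of the 12 falls could be tested and 4 passed, where 16.6% of all 8705 genes tested were higher and 16.7% lower. With depth-matched zero cells 6 of the 12 could be tested, and with both changes 1. Against cells with 1 or 2 Akr1c18 UMIs 1 could be tested. The falls tested in these last comparisons passed, and all 12 named rises could be tested in each.

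On day 0, seen in 2 tumours of line 15, 11 of the 12 named rises passed. Of all 7641 genes tested there, 481 passed and 350 of these were higher in members. The 12 were picked as the largest rises of a fit that already held 1 of these 2 tumours. In both day 0 tumours of line 15, with 20 and 19 members, Nppb stood at 246 and 395 CPM in members against 12.2 and 6.62 CPM in zero cells, and Ptgs2 at 343 and 304 CPM against 72.3 and 27.1 CPM. Both genes were high in the members and low in the zero cells of both tumours. With at least 10 cells of each class, edgeR gave Nppb a log2 fold change of 5.12 (adjusted p = 6.52e-05), Ank 4.07 (1.11e-05) and Ptgs2 2.85 (4.17e-04) on these 2 tumours, which are 1 line in 1 library.

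Immediate early genes, switched on within minutes of a stimulus, differed by day. Over all tumours 14 of 17 were lower in members and 1 was higher, with Fos lower by 0.84, Egr1 by 1.17 and Fosb by 1.50 and Ier3 higher by 0.63. Their median was -0.44, where 18.2% of all genes were lower and 17.7% higher. With depth-matched zero cells it was -0.28, with 9 of 16 lower and 2 higher (18.8% and 17.4% of all genes there). In the own library of line 15 the 18 listed genes summed to 4520 and 4736 CPM in the members of the day 0 tumours and to 2169 and 2905 CPM in zero cells. On later days they summed to 6135 to 10425 CPM in members and to 6965 to 15031 CPM in zero cells of the 6 tumours. The members were thus above the zero cells in both day 0 tumours and below them in all 6 later ones. The difference of the contrast between later days and day 0, tested in the own libraries with a single day 0 tumour of line 15, passed for 153 of 8579 genes (1.78%). Of 16 immediate early genes tested, 10 passed, all lower on later days, with a median of -1.76 against 0.03 over all genes. The spread behind these tests comes from the later tumours, since day 0 has 1. The later tumours are of lines 15 and 18, and no term lets the contrast differ between lines. Day and line are thus partly confounded in this fit. Junb had -2.73 (SE 0.23, edgeR adjusted p = 5.07e-09), Zfp36 -2.72, Ier3 -2.25 and Jun -1.37. On day 0 alone Fos and Fosb had log2 fold changes of 0.33 and 0.10, which did not pass. Tgfbi (-2.29) and Ank (-2.54) also differed less from zero cells on later days, whereas the difference of Nppb (-2.01, SE 0.58, edgeR adjusted p = 0.0720) did not pass. In the own library of line 15, Ank stood at 1152 and 977 CPM in day 0 members and at 774 to 1195 CPM in later ones. In zero cells it stood at 60.6 and 76.2 CPM on day 0 and at 159 to 396 CPM later. Tgfbi stood at 269 and 334 against 288 to 451 CPM in members. In zero cells Tgfbi stood at 43.7 and 80.8 against 188 to 308 CPM. With at least 10 cells of each class, which brings in the second day 0 tumour of line 15, 393 of 8447 genes (4.65%) passed. There 12 of 16 immediate early genes passed, all lower on later days, with a median of -1.53. Junb had -2.05, Zfp36 -2.42, Ier3 -2.02 and Jun -1.26, and Nppb passed with -2.56 (edgeR adjusted p = 0.0025). Macrophage markers had a median of -2.58 (0 of 6 passed) in the fit with 1 day 0 tumour and -0.97 (0 of 5) with both, and their part in these differences was not tested.

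Few genes passed between members of later days and members of day 0. Of 7134 genes, 14 (0.196%) passed in edgeR, all lower on later days, with a single day 0 tumour on that side. Ccnb2, a mitotic cyclin, stood at 99.2 CPM in members of the day 0 tumour and at 17.3 to 56.1 CPM in the 11 later ones (log2 fold change -1.88, edgeR adjusted p = 0.0045). Ankrd1, a stress-responsive target of YAP, stood at 256 against 10.4 to 124 CPM (-1.70), Asns, asparagine synthetase, at 160 against 22.6 to 72.3 CPM (-1.68), and Psph, of serine synthesis, at 150 against 47.5 to 91.8 CPM (-1.39). All 11 later tumours lay below that day 0 tumour for each of these 4 genes. The other day 0 tumour of line 15, with 19 members, was left out by the minimum of 20. Its members had 36.8 CPM of Ccnb2, 70.2 CPM of Asns, 97.0 CPM of Psph and 154 CPM of Ankrd1. With at least 10 members per tumour, both day 0 tumours and 13 later ones entered. Of the 13, 9 lay below this tumour for Ccnb2, 12 for Asns, 12 for Psph and 13 for Ankrd1. In that fit 15 of 5761 genes (0.26%) passed, 12 of the 14 among them. Ankrd1 (-1.37, edgeR adjusted p = 0.0036) and Psph (-1.09, 0.0368) passed there, and Ccnb2 (-1.33) and Asns (-1.20), both at 0.0737, did not. The zero cells of the line 15 tumours were also higher on day 0 for Asns, Psph and Ankrd1. In the own library of line 15, Asns stood at 168 and 128 CPM on day 0 and at 35.9 to 77.8 CPM later. Psph stood at 175 and 143 against 35.5 to 87.0 CPM, and Ankrd1 at 518 and 460 against 72.2 to 144 CPM. Ccnb2 in zero cells overlapped, at 50.7 and 63.6 against 22.1 to 64.1 CPM. With both day 0 tumours, the difference of the contrast between days did not pass for Ccnb2, Asns or Psph (edgeR adjusted p = 0.257, 0.766 and 0.257). It passed for Ankrd1 (0.82, edgeR adjusted p = 0.0181).

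At a minimum of 20 members per tumour, the KO side of the comparison with control members was 3 tumours labelled line 19 in mixed library 1, whose members carried Mif as described. Mif stood at 1331, 1159 and 1409 CPM there and at 1728 to 2811 CPM (median 2353) in 17 control tumours, below every control tumour, with a log2 fold change of -0.83 (edgeR adjusted p = 0.0028). Of 5810 genes 12 (0.207%) passed, 10 higher and 2 lower in KO. Syne2, a nuclear envelope protein that links to the cytoskeleton, stood at 103, 143 and 106 CPM against at most 77.7 CPM in control tumours (1.37), and Egln3, an oxygen-sensing hydroxylase, at 46.9, 52.4 and 33.6 against 0 to 20.7 CPM (2.28). Nin, Itgb5 and Syne3 rose by 1.62, 1.34 and 1.04, and Tgfbi fell by 0.68, with 209 to 240 CPM against 269 to 451 CPM. With the own libraries alone and at least 3 members per tumour, where 6 tumours of line 19 with 37 members in all are the KO side, 130 of 4485 genes (2.9%) passed, 7 of the 12 among them. There Mif had a log2 fold change of -5.53, Syne2 1.81 and Tgfbi -1.29, and Itgb5 (0.47) and Syne3 (0.73) did not pass. KO line 24 had no member to enter, nor a tumour with 20 members in the first fit. The KO side was thus line 19 alone in both fits, so knockout and line cannot be told apart. Within the mixed libraries, which hold the KO tumours of the first fit, 5 genes passed, 2 of the 12 among them. Without line 15 there were 86 and without line 18 there were 62.

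The high against zero contrast itself differed between KO and control tumours for 44 of 8773 genes (0.502%) on the same 3 KO tumours. The number was 81 without line 15 and 29 without line 18. None of 6 aldo-keto, 10 prostaglandin, 17 immediate early and 17 cell cycle genes passed. At the rate of all genes, lists this short would hold few or no calls, so no conclusion is drawn from them. In the lists of tetrahydrobiopterin and folate, bone and cartilage, and interferon response genes 1 each passed, lower in KO. Of TGF-beta response genes 1 passed, higher in KO. Macrophage markers had a median difference of 1.66 against -0.02 over all genes, and 2 of 8 passed, both higher. In the own libraries alone with at least 3 cells of each class, 108 of 8873 genes (1.22%) passed, 102 of them lower in KO, and 5 of the 44 were among them. The median difference over all genes was -0.23 there, and that of macrophage markers -0.996, with 0 of 6 passing. Of the aldo-keto genes 1 of 6 passed there.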

How the data were processed

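For each library the authors deposited a matrix of unnormalized UMI counts (genes by cell barcodes), made with Cell Ranger 6.0.0 on mm10 per the submitters' processing notes, and a sheet whose day values (other, a label per hashtag) give line, day and letter. The annotation's version is not named in the notes or headers. Cells needed at least 300 genes, at most 15% mitochondrial counts, and a top hashtag of at least 20 counts and 3 times the second. No doublet caller was run: the hashtag ratio is meant to remove doublets between tumours, and those within a tumour remain. How many doublets between tumours passed the ratio was not tested, and members labelled KO in the mixed libraries carried Mif as described. An alternative left out the cells above the 90th percentile of UMIs.

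Members, lists and rules were chosen with earlier results of these data known. Counts were summed per tumour and class. Fits used edgeR 4.0.16 (filterByExpr, TMM, glmQLFit, glmQLFTest; the tumour as a block for high against zero, since both classes come from the same tumours), with Benjamini-Hochberg adjustment over all genes tested and a threshold of 0.05. Log2 fold changes are edgeR's. Levels are CPM, counts per 1000000 of the summed UMIs. The named genes are the 12 largest rises and falls (5 each way for the other fits) past that threshold whose mean logCPM was 4 or more, for high against zero also with the same sign in lines 15, 18, 19 and 24 (for line 24 from 20 members of a mixed library, whose Mif went against the label), and members of the lists. Host-marked cells have over 0.5% of their UMIs from the host lists. Hashtags, not animals, are the replicates, and the labels do not say whether each is a separate animal, so p-values measure the spread between these samples. Tumours needed 20 cells per class for a fit and 50 gated cells for a share. Shares were tested by exact permutation. In simulated counts for high against zero (8723 genes), 100 genes were changed by a log2 fold of 1 and 100 by 0.5, both up and down. All tumours were given the same mean profile. Of these genes 98% and 68% were recovered, and 3.49% of calls were unchanged genes. In the data 35.9% of genes were called and tumours differed, so 3.49% is not the rate of false calls there. Alternatives were DESeq2 1.42.0, RLE scaling, other filters, thresholds, depths and libraries.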

Additional observations from a re-analysis of the deposited data

Results flagged for a closer look

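The difference between members and zero cells itself differed between KO-labelled and control tumours, by an edgeR interaction term with an adjusted p under 0.05, for 10 named genes. The differences in log2 fold change were 3.52 for Sprr1a, 2.88 for Tslrn1, 2.78 for Il1b, 2.71 for C1qb and 2.58 for Cxcl2, and -1.49 for Klhdc8a, -1.42 for Dtnb, -1.41 for Endod1, -1.19 for Mgp and -1.08 for Hspb7. The KO side is 3 tumours labelled line 19 in mixed library 1, whose members carried more Mif than their zero cells. In the same fit macrophage markers, of which C1qb is one, had a median of 1.66 against -0.02 over all genes, and 2 of 8 passed. The part of either in these differences was not tested. In the own libraries alone, with at least 3 cells of each class, none of the 10 passed.

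The same contrast differed between later days and the 1 day 0 tumour of line 15 for 16 named genes. The differences were 9.15 for Ampd2, 2.44 for Aif1l, 2.01 for Timm10, 1.82 for Bola1 and 1.80 for Nes. They were -6.79 for Laptm5, -5.62 for Ccl2, -4.62 for Olfml3, -4.36 for Lgals7 and -4.24 for Col6a3. Among genes chosen after their values were seen, they were -2.73 for Junb, -2.72 for Zfp36, -2.25 for Ier3, -1.37 for Jun, -2.54 for Ank and -2.29 for Tgfbi. That tumour had 20 members. In the same fit macrophage markers had a median of -2.58 and fibroblast and pericyte markers of -1.31 against 0.03 over all genes, with none passing, and their part in these differences was not tested. With the second day 0 tumour those medians were -0.97 and 1.49, 14 of the 16 passed with the same sign, and Ampd2 (0.72) and Bola1 (0.82) did not pass.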

How the results depend on the processing

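For members against zero cells, 3146 genes passed. The count was 1213 with thinned cells, 1919 at 6 Akr1c18 UMIs or more, 536 against cells with 1 or 2 UMIs, 2079 in single-line and 1621 in mixed libraries, and 481 on day 0. Leaving out a line gave 1708 to 3146, where line 24 has no tumour in the fit. Without the tumour block it was 2436. DESeq2 (2998) and the others lay within 1.5 times. With no count filter, 2949 of 4168 calls were lower. Values that turned sign were Lyz2 when thinned (0.19), Gch1 without host-marked cells (0.080) and, on day 0, Krt18 (0.047), Hk2 (0.46), Fos (0.33), Fosb (0.10) and Gpnmb (-0.74). The KO difference of the contrast passed for 44 genes, ran from 29 to 81 without a line, and was 108 in single-line libraries with at least 3 cells (chosen after seeing the data), where Sprr1a (-5.71), Tslrn1 (-4.13), Il1b (-6.12), C1qb (-5.60) and Cxcl2 (-1.78) turned sign without passing. The day difference of the contrast passed for 153 genes and, with both day 0 tumours of line 15 (at least 10 cells, chosen after seeing the data), for 393. Members by day passed for 42 genes with no filter. Members of KO against control passed for 22 with DESeq2, 74 with no filter, 62 to 86 without a line, 5 in mixed libraries and 130 in single-line libraries. The day difference of the share turned to 0.463 points when thinned, 6.47 CPM as Akr1c18 CPM and 0.212 points without host-marked cells, and ran from -0.401 to 0.276 points without a line. The cause of these changes was not tested. A fit without line 19 for KO, without line 15 for days, and of day 0 at 20 cells could not be made. No replicate block by letter was possible because tumours of different lines share letters only. At these depths per cell, the lack of an Akr1c18 UMI does not show absence.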
